A study of Homo sapiens with 8 samples.

Results

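The peptidylarginine deiminases are a family of 5 enzymes, encoded by PADI1, PADI2, PADI3, PADI4 and PADI6, and each symbol matched 1 of the 31412 gene rows of the non-normalized table. The members were taken by symbol. The family was chosen because PADI4 was already known to be among the largest rises with estradiol in these arrays, so the family's values under that contrast are given as a description, with no test. The arrays were Illumina bead arrays, and the RNA came from MDA-MB-231-ER-beta cells, a triple-negative breast cancer line, labelled as a single inducible line, in which doxycycline switches on oestrogen receptor beta (ER beta, the product of ESR2). All cultures grew in charcoal-stripped serum with 100 ng/ml doxycycline, and received ethanol vehicle (0 nM estradiol) or 1 nM 17-beta estradiol for 5 days, the medium being renewed on day 3. There were 3 cultures per treatment, and a second RNA sample of vehicle culture 3 and of estradiol culture 1 brought the arrays to 8. No culture went without doxycycline, so effects of estradiol that need ER beta cannot be told apart from others.

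Peptidylarginine deiminases convert arginine residues in proteins to citrulline, which removes the positive charge of the side chain, and all of the active ones need calcium. PADI4 carries a nuclear localisation signal, citrullinates histones, and is best known in neutrophils, where it takes part in the release of chromatin as extracellular traps. PADI1 and PADI3 act in epidermis and hair follicle, PADI2 is made in many tissues including mammary epithelium, and PADI6 belongs to oocytes and early embryos.

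The 5 genes lie next to each other on human chromosome 1, in the order PADI2, PADI1, PADI3, PADI4 and PADI6 in the RefSeq gene table. Because neighbouring paralogs gave different readouts on the arrays, the 250 bases before the annotated start of each gene are shown for the 4 of 5 members with an entry in the RefSeq promoter table (GRCh38.p14); PADI3 is named only. The window of PADI4 is chr1:17307947-17308196 on the + strand, that of PADI2 chr1:17119452-17119701 on the - strand, that of PADI1 chr1:17204878-17205127 on the + strand and that of PADI6 chr1:17371946-17372195 on the + strand. Each is written 5′ to 3′ in the direction of its gene, and capitals mark every match, on either strand, to the motifs searched. The oestrogen receptor half-site was searched as AGGTCA, and the full oestrogen response element, which contains it, as that half-site and its inverted repeat with 3 bases between them. The GC box was searched as GGGCGG, the CCAAT box by its own letters, and the TATA box as TATAAA. The AP-1 site, added to the search after the sequences had been read, was searched as TGACTCA.
PADI4: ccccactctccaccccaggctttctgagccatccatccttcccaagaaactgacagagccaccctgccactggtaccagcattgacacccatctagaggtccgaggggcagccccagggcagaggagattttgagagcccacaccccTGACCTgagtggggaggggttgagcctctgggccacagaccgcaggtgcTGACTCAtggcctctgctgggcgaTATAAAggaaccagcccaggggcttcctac
PADI2: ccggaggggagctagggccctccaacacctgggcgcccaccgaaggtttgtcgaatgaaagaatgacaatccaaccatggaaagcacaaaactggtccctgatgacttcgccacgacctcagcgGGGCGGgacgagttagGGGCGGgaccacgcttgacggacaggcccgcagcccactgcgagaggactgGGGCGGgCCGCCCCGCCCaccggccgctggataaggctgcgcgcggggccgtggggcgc
PADI1: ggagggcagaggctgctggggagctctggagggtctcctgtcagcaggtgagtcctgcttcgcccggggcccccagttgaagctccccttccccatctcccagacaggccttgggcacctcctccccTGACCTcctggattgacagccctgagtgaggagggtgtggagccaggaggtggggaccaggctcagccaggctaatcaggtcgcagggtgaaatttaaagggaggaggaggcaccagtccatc
PADI6: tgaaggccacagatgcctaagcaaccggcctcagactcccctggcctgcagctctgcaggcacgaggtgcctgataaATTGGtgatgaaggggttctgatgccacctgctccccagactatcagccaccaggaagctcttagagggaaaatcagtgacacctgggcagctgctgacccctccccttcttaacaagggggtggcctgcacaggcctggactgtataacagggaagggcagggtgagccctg

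The window of PADI4 held a TATA box from 30 to 25 bases before the start, an AP-1 site from 54 to 48 bases before it and an oestrogen receptor half-site on the opposite strand from 103 to 98 bases before it. Among all 35116 promoters of that table cut to the same 250 bases, 10.7% held a TATA box, 4.2% an AP-1 site and 12.1% a half-site on either strand. PADI1 also held 1 half-site, on the opposite strand from 123 to 118 bases before the start, and no other match. PADI2 held 5 GC boxes, a motif found in 42.6% of promoters, and none of the other motifs. PADI6 held 1 CCAAT box, found in 32% of promoters, and no other match. The full oestrogen response element stood in none of the 4 windows and in 0.00285% of all promoters. PADI2 had a GC content of 68.0% with 24 CpG dinucleotides, against 61.2% and 3 in PADI4, 64.0% and 3 in PADI1, and 58.8% and 2 in PADI6. Matches are given as a description and are not taken as binding sites.

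PADI4 was detected on all 8 arrays, as were 27.6% of all rows, and its signal was far higher with estradiol. Its raw signal on the vehicle arrays was 127.4 for culture 1, 132.0 for culture 2, 99.1 for culture 3 and 106.2 for the repeat array of culture 3. On the estradiol arrays it was 2780 for culture 1, 2594 for the repeat of culture 1, 2240 for culture 2 and 2565 for culture 3. The groups did not overlap, and the lowest estradiol array stood at 17.0 times the highest vehicle array. A row counted as detected where its detection p was under 0.01. For 24130 rows, PADI4 among them, that p was a whole multiple of 1 in 770, its rank among the negative controls of the same array. For the other 7282 rows it was not such a multiple, and their detection counts need not follow their signal. On vehicle arrays 0 or 1 of 770 negative controls reached the PADI4 signal, which lay 3.64 to 9.56 SD above the background mean there. PADI4 was thus low but measurable without estradiol.

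**Figure D1:**
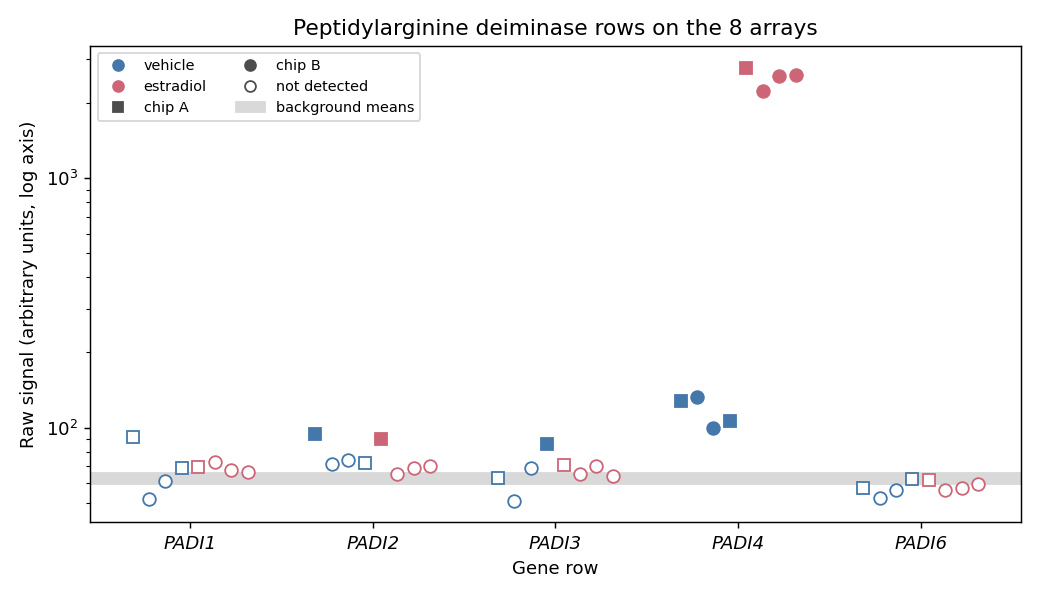
Raw signal (log axis) of each peptidylarginine deiminase row on the 8 arrays, vehicle in blue and estradiol in red; squares are chip A, circles chip B, open symbols arrays on which the row was not detected, and the grey band the background means of 59.2 to 65.5. PADI4 is detected on all 8 arrays, at 99.1 to 132.0 in vehicle and 2240 to 2780 with estradiol, while the other rows lie at or near the band.

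After background correction, quantile normalization and averaging of the arrays of a culture, the PADI4 log2 signal was 6.19, 6.64 and 6.01 in vehicle cultures 1, 2 and 3 and 11.33, 10.98 and 11.18 in estradiol cultures 1, 2 and 3. The mean was 6.28 ± 0.322 (SD, n = 3) in vehicle and 11.17 ± 0.176 (SD, n = 3) with estradiol. The log2 change was 4.89 (SE 0.164, limma), or 29.6-fold, and ranked 4 among the rises of the 11191 rows tested. The spread among cultures was small beside this difference: vehicle cultures spanned 0.63, estradiol cultures 0.35, and 4.34 lay between the groups. Of all rows tested, 42.8% had cultures that did not overlap between treatments, and 19.8% did so with estradiol higher. At an adjusted p under 0.05 (limma), 13.5% were called higher and 14.1% lower, 27.6% in all, and 0.491% rose by a log2 of at least 2. Nothing is read from PADI4 belonging to these groups, since it was chosen on this contrast.

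The size of the PADI4 change differed with the treatment of background and normalization. The part of the low vehicle signal in this was not tested. The log2 change was 4.08 without background correction, 4.21 in the values the authors normalized, which ran from 105.4 to 143.6 in vehicle and from 1992 to 2647 with estradiol, and 3.27 when all rows, combined ones included, served to infer the background. It was 5.13 within chip A and 4.92 within chip B. Over 20 alternatives the change lay between 3.27 and 5.13. Other detection filters, another variance model and the replicate block cannot move this value, and left it at 4.89. In bulk RNA, more cells making PADI4 and more PADI4 transcript per cell cannot be told apart, and the probe sequence was not used here.

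None of the other members was detected often enough to be tested, which required 3 of the 8 arrays. Absence of detection was the usual state of a row on these arrays, 57.2% of all rows being detected on none, and it sets only an upper limit. Single-probe rows, all 5 members among them, were detected from raw signals of 78.1 to 93.3 upwards, depending on the array.

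PADI2, the family member with the broadest tissue range, was detected on 1 vehicle and 1 estradiol array. Its raw signal was 93.8, 71.6, 74.2 and 71.8 on the arrays of vehicle cultures 1, 2, 3 and the repeat of 3. It was 89.7, 65.2, 68.8 and 70.1 on those of estradiol cultures 1, 2, 3 and the repeat of 1. The treatments overlapped, and the 2 arrays that detected it were both on chip A and 1 of each treatment. The difference of the log2 means was -0.25 (SE 0.193, n = 3 and 3 cultures). It was 0.26 within chip A, which has 1 estradiol array, and -0.24 within chip B. When all rows served to infer the background it was -0.01.

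PADI1, which modifies keratins in epidermis, was detected on no array. Its raw signal ran from 51.6 to 91.8 in vehicle and from 66.1 to 72.6 with estradiol, and the highest vehicle array, that of culture 1, was also above every estradiol array. The difference of the log2 means was -0.02 (SE 0.272, n = 3 and 3).

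PADI3, known from the hair shaft, was detected on 1 array, the repeat of vehicle culture 3, at 85.9, while the first array of the same culture gave 69.0. The remaining vehicle arrays gave 62.7 and 50.9, and the estradiol arrays 64.0 to 70.7. All of these overlapped, and the difference of the log2 means was 0.03 (SE 0.235, n = 3 and 3).

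PADI6, the oocyte member, was detected on no array, at 52.3 to 62.0 in vehicle and 56.3 to 61.6 with estradiol. Relative to the background mean of their arrays, these values lie between -0.902 and 0.0377 SD. The difference of the log2 means was 0.04 (SE 0.0403, n = 3 and 3).

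The 3 detections of PADI2 and PADI3 all fell on chip A, which held 3 arrays, and 0 on chip B, which held 5. The part of the chip in these detections was not tested. For each of these 4 members the treatments overlapped, and a difference below the detection level could not be measured.

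The genes on either side of the cluster were compared between treatments as context. Of the 8 protein-coding genes on each side, 14 of 16 had a row and 6 were tested. ATP13A2, which encodes a lysosomal polyamine transporter, was higher with estradiol (log2 change 0.70, SE 0.144, adjusted p = 0.00486, limma). Of the 6 tested, 1 was called higher and 0 lower, beside 13.5% higher and 14.1% lower among all rows tested. The gene nearest to the cluster on the PADI2 side, SDHB, a subunit of succinate dehydrogenase, was at -0.10 (adjusted p = 0.524, limma), and the nearest on the PADI6 side, RCC2, a mitotic regulator, was at -0.15 (adjusted p = 0.342, limma). NECAP2 (0.10), CROCC (-0.01) and ALDH4A1 (-0.29) did not pass either. ATP13A2 was at 0.93 within chip A, which has 1 estradiol array, and at 0.28 with the all-row background.

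**Figure D2:**
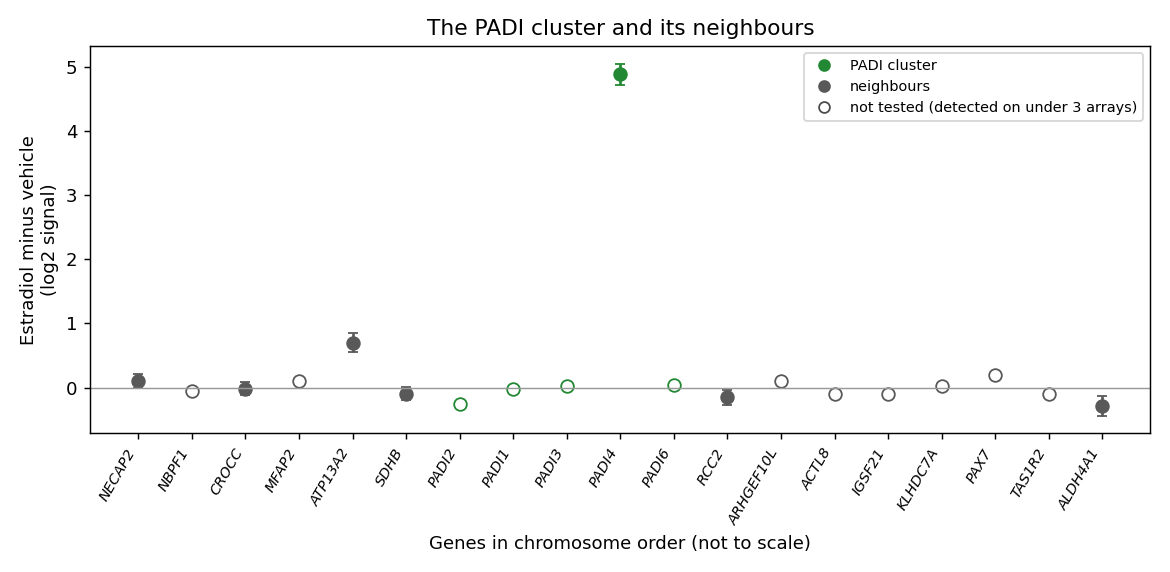
Estradiol minus vehicle log2 signal for the 5 PADI genes (green) and their neighbours with a row (grey), in chromosome order and not to scale; bars are limma standard errors, and open symbols are rows detected on fewer than 3 arrays, which were not tested. PADI4 stands at 4.89, and the tested neighbours lie between -0.29 and 0.70.

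The rows whose profile over the 8 arrays was most like that of PADI4 were found by the root mean square distance between log2 profiles, each centred on its own mean. The nearest was CST2, which encodes the salivary cysteine protease inhibitor cystatin SA, at a distance of 0.21 (r = 0.998 over 8 arrays). Its raw signal ran from 74.1 to 94.5 in vehicle and from 1505 to 1858 with estradiol. The secreted glycoprotein gene OLFML3 (distance 0.35), the semaphorin gene SEMA3B (0.35) and CXCR7, now ACKR3, an atypical chemokine receptor (0.44), followed. LOXL4, a lysyl oxidase gene (0.55), the chemokine gene CXCL14 (0.57) and the keratin gene KRT17 (0.64) were next. OLFML3, CXCR7 and CXCL14 were not well above background on any vehicle array. These correlations mainly describe the step between treatments that the rows share, and carry no test.

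ESR2, the receptor that doxycycline induces, was lower where PADI4 was higher. Its raw signal was 2130 to 3163 on the vehicle arrays and 1209 to 1349 on the estradiol arrays, without overlap, and its log2 change was -1.17 (SE 0.118, adjusted p = 5.1e-05, limma).

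Other enzymes that act on arginine were examined as lists, whose counts stand beside 13.5% of all tested rows called higher, 14.1% lower and 27.6% in all. The protein arginine methyltransferases also modify arginine residues in proteins. Among them and their partner WDR77, 1 rose, 3 fell and 5 did not pass of 9 tested. Their median log2 change was -0.05 against -0.02 over all rows tested. PRMT1, the main asymmetric dimethylating enzyme of the cell, fell by 0.68 (SE 0.117, adjusted p = 0.00177, limma), with cultures at a mean log2 signal of 10.48 in vehicle and 9.80 with estradiol. PRMT3, which methylates a ribosomal protein, fell by 0.54, WDR77, a subunit of the PRMT5 complex, fell by 0.43, and PRMT2 rose by 0.42. With the all-row background PRMT2 was at 0.14 and WDR77 at -0.10, and the calls of WDR77 and PRMT3 were lost. CARM1 (-0.05), PRMT5 (0.08) and PRMT6 (-0.01) did not pass. The call of PRMT2 was lost without vehicle culture 3 or estradiol culture 2 (adjusted p up to 0.0681, limma). That of PRMT3 was lost without vehicle culture 2 or 3 or estradiol culture 1 or 2 (up to 0.0779), and that of WDR77 without vehicle culture 2 or 3 or estradiol culture 2 or 3 (up to 0.0984).

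Of 20 genes listed for free arginine and citrulline metabolism 11 were tested, of which 3 were called higher, 4 were called lower and 4 did not pass (median -0.33). ODC1, which makes putrescine from ornithine, fell by 1.68 (SE 0.114, adjusted p = 2.67e-06, limma). ARG2, the mitochondrial arginase, fell by 1.07 (SE 0.112), was detected on 4 vehicle arrays and 1 estradiol array, and was at -0.05 with the all-row background. DDAH2 rose by 0.82, DDAH1, which releases citrulline from methylated arginine, by 0.76, and ASS1, which condenses citrulline with aspartate, by 0.58. With the all-row background DDAH2 was at 0.32 and ASS1 at 0.27, and DDAH1, at 1.03, lost its call. The arginine transporter gene SLC7A1 was at -0.37 and the ornithine aminotransferase gene OAT at -0.44. Both were called lower, but the call of SLC7A1 was lost without any single culture other than vehicle culture 1 (adjusted p up to 0.0882, limma) and without the repeat array of vehicle culture 3 (0.0698). That of OAT was lost without vehicle culture 2 or 3, estradiol culture 1 or 3 (up to 0.136), or that repeat array (0.114), and with the all-row background. ALDH18A1 (-0.33), SLC25A15 (-0.10) and NAGS (-0.33) did not pass. NOS1 and NOS2, nitric oxide synthase genes whose products form citrulline, were not tested.

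**Figure D3:**
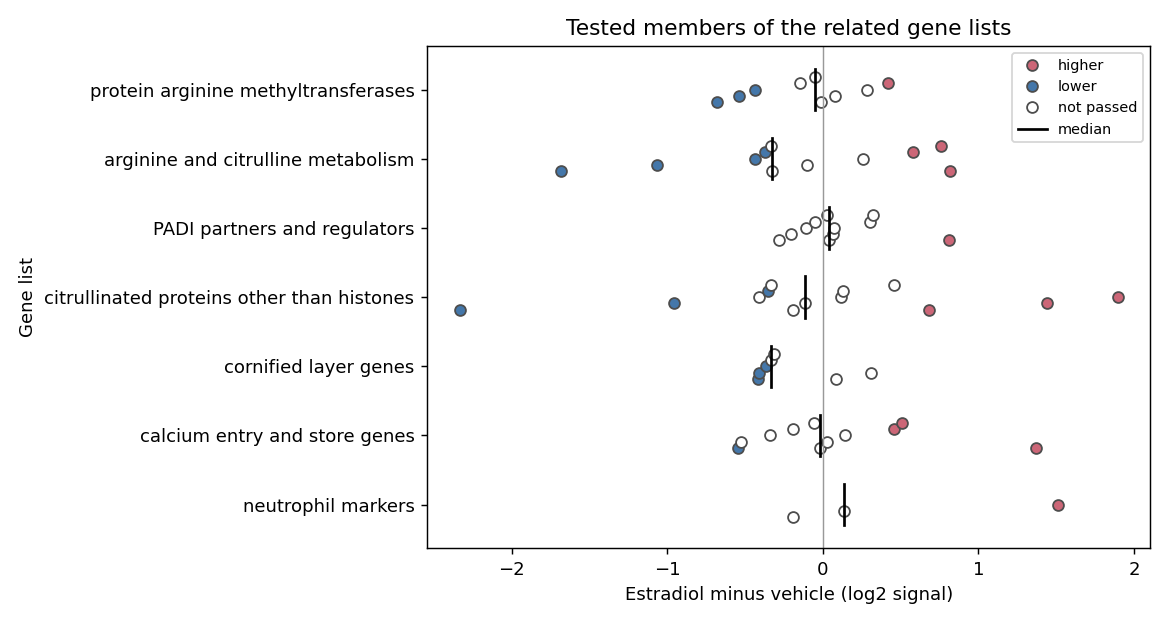
Estradiol minus vehicle log2 signal of each tested member of 7 gene lists, red where called higher, blue where called lower and open where not passed at an adjusted p of 0.05; vertical bars are list medians, and points are offset vertically for legibility. Every list has members that did not pass, and list medians lie between -0.34 and 0.13.

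Of 11 tested genes whose products bind, modify or regulate PADI4 or its relatives, 1 rose, 0 fell and 10 did not pass (median 0.04). Among all rows tested, 27.6% were called, and nothing about the list as a whole is read from its count. The deacetylase gene HDAC1 (0.03), ELK1 (-0.11), which encodes a PADI4 substrate, and HDAC2 (0.07) did not pass. HDAC2 was detected on 0 vehicle and 3 estradiol arrays, although its raw signal was 595 to 831 on vehicle and 672 to 1031 on estradiol arrays. Its detection count is therefore not read as absence in vehicle.

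Among genes of proteins known to be citrullinated, histones aside, 3 rose, 3 fell and 7 did not pass of 13 tested (median -0.11), beside the 27.6% of all tested rows that were called. S100A3, a substrate of the PADI3 enzyme in hair, rose by 1.90 (SE 0.126), FN1, which encodes fibronectin, by 1.44 (SE 0.152) and the intermediate filament gene VIM by 0.68 (SE 0.118). With the all-row background FN1 was at 0.09. The chemokine gene IL8, now CXCL8, fell by 2.33 (SE 0.190), the chaperone gene HSPA5 by 0.96 (SE 0.109) and the kinase gene GSK3B by 0.36 (SE 0.107). The call of GSK3B was lost without vehicle culture 3 or any one estradiol culture (adjusted p up to 0.126, limma) and without the repeat array of vehicle culture 3 (0.117). ENO1 (-0.11), ACTB (0.12) and RPS2 (-0.19) did not pass.

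The cornified layer of the epidermis is where PADI1 and PADI3 have their best known substrates. Of 18 genes listed 7 were tested, 0 rose, 3 fell and 4 did not pass (median -0.34). Among all rows tested, 13.5% were called higher and 14.1% lower. FLG and TCHH, which encode the substrates filaggrin and trichohyalin, were each detected on 1 estradiol array and not tested. The 3 that were called lower were BLMH (-0.42), SPRR1A (-0.41) and EVPL (-0.36), with adjusted p of 0.0467, 0.0382 and 0.0331 (limma). None of these calls held throughout: SPRR1A lost its call without vehicle culture 1 or 3 or estradiol culture 2 or 3 (up to 0.139) and without the vehicle repeat array (0.0925). EVPL lost it without vehicle culture 2 or 3 or estradiol culture 2 or 3 (up to 0.143) and without that array (0.0888), and BLMH without any single culture other than vehicle culture 1 (up to 0.158). With the all-row background BLMH was at -0.14, SPRR1A at -0.04 and EVPL at -0.06, and the calls of BLMH and SPRR1A were lost. KRT10 (-0.34), CNFN (0.09) and TGM3 (-0.31) did not pass, and TGM3 was detected on 3 vehicle and 0 estradiol arrays.

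Of 11 tested genes for calcium entry and stores, on which deiminase activity depends, 3 rose, 1 fell and 7 did not pass (median -0.02), a share near the 27.6% of all tested rows that were called. ATP2B4, a plasma membrane calcium pump gene, rose by 1.37 (SE 0.113, adjusted p = 1.14e-05, limma) and was at 0.75 with the all-row background. Of the inositol trisphosphate receptor genes ITPR3 rose by 0.51 and ITPR1 fell by 0.55. The call of ITPR1 was lost with the all-row background, where it was at -0.03, and under median centring. STIM1, the calcium sensor of the endoplasmic reticulum, rose by 0.46, a call lost without any single culture other than vehicle culture 2 (adjusted p up to 0.134, limma) and with the all-row background, where it was at 0.06. ATP2A2 (0.03), ORAI1 (-0.34) and TRPC1 (0.14) did not pass.

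Neutrophils are the cells in which PADI4 is best known, and their markers were checked beside it. Of 22 markers, 17 were detected on no array, among them MPO, ELANE, CEACAM8, CSF3R and PTPRC, beside 57.2% of all rows. Of the 3 tested, 1 rose, and FPR1 (0.13) and FCGR3B (-0.19) did not pass. Among all rows tested, 13.5% were called higher. The summed raw signal of the list was 1458 to 1653 on vehicle and 1684 to 1753 on estradiol arrays, and 1338 to 1532 against 1400 to 1469 without the marker that rose. These sums include the background of every row. The line's own markers VIM, CD44, AXL, CAV1 and MSN were detected on all 8 arrays, and ESR1 and PGR on none.

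Between 10172 and 11123 rows were detected per array, and 8 arrays give limited precision. Nothing in the labels gives a separate day or passage for the cultures, so the p-values reflect their spread alone, which may be technical. The 2 arrays of vehicle culture 3 correlated at 0.980 across tested rows, below the 0.984 to 0.992 of different vehicle cultures, and PADI4 was at 4.93 without the repeat array. Of the 26 list genes called, 16 kept their call whichever culture was left out. On chip A alone, with 1 estradiol array, 5 kept it, ODC1, FN1, CXCL8 and S100A3 among them, and on chip B alone 20.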

How the data were processed

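Total RNA of 6 cultures was labelled as biotinylated cRNA and hybridised to 8 Illumina arrays, per the labels' protocols. The authors deposited 2 tables. One gives gene rows with, for every array, an intensity that is not normalized and a detection p-value, per the file headers. The other gives intensities after the authors' normalization and served as an alternative. Software and details of both were not given in the sources used here. Of 31412 named rows, 24130 had detection p-values that were whole multiples of 1 in 770 (within 0.002) and were taken as single probes; 3266 blank rows were left out.

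Signals were background-corrected with normexp (limma 3.58.1, R 4.3.3), the background mean (59.2 to 65.5) and SD (7.61 to 11.6) being inferred from single-probe rows. An offset of 16 was added, which shrinks changes of dim rows, and values were quantile normalized and log2 transformed. Arrays of a culture were averaged. The titles place the estradiol repeat with culture 1, whereas the series text says replicate 3 was repeated; titles were followed. That text gives as the reason for the repeat that replicate 3 differed slightly. Rows detected (p under 0.01) on at least 3 arrays (11191) were compared with lmFit and eBayes, with Benjamini-Hochberg adjustment at 0.05. The arrays lay on 2 chips, chip A with 2 vehicle and 1 estradiol array, chip B with 2 and 3. Tested on simulated data for estradiol against vehicle (11191 rows), calls included 34% of the rows given a log2 change of 0.5, 92% of those given 1 and 100% of those given 2. Of 173 calls, 10 were false. The main comparison made 3092 calls, many more than the simulation. The simulated shares therefore describe the simulation alone and are not error rates of the main comparison.

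Members and lists were chosen with earlier results of these data known. Named were all members, ESR2, called list members (the lists had at most 7 called), up to 3 of the brightest members not passing, tested neighbours, FLG and TCHH and other untested examples chosen after their values were seen, and the 8 rows nearest to PADI4; a few genes that this rule names are not reported here. Of the list symbols, 4 were matched through synonyms of the GRCh38.p14 gene table. The promoter table was checked to be written in gene direction by the position of TATAAA. Alternatives covered the repeat arrays, replicate number, chip, background, normalization, filter, variance model and each culture left out.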

Additional observations from a re-analysis of the deposited data

Results flagged for a closer look

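The raw signal of PADI2 on the vehicle culture 1 array was 93.8, apart from 71.6 to 74.2 on the other vehicle arrays. The gap was 0.886 of the group's range, above Dixon's critical value for 4 arrays. In all 10 groups of 4 arrays were tested over the family, and chance flags about 1 in 20. The 4 arrays come from 3 cultures.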

How the results depend on the processing

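The PADI4 log2 change (4.89) was 4.08 without background correction, 3.27 with the background inferred from all rows and 4.21 in the authors' normalized values. It moved by less than the spread among cultures (SD 0.26) under the other alternatives, some of which cannot move it. The value was 4.75 to 5.07 when each culture was left out. Rows called higher (1516) and lower (1576) numbered 277 and 127 on chip A alone, which has fewer arrays, and 2052 and 540 with each array centred on its median over all rows, which moved the median change of tested rows from -0.02 to 0.14 and the share of calls that were rises from 49.0% to 79.2%. Leaving out each culture gave 1035 to 1687 higher and 920 to 1692 lower, with 920 without vehicle culture 3, 1011 without estradiol culture 2 and 950 without estradiol culture 3. Same-numbered cultures deviated together at r = 0.133, 0.133 and -0.0328, and 2 of 3 vehicle cultures correlated best with their own number. The numbers also differed in chip, so these values cannot settle whether cultures were paired. The main comparison left them unpaired. With the replicate block PADI4 was at 4.89, with 1593 rows higher and 1677 lower. Under median centring 17 of the 26 called list genes passed; PRMT3, WDR77, SLC7A1, OAT, GSK3B, SPRR1A, BLMH, EVPL and ITPR1, all lower, did not. The vehicle signal of PADI4 was low, and the size of its change differed between alternatives. The alternative without the vehicle repeat array was chosen after seeing the data.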
